A study of Mus musculus with 4 samples.

Results

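The BCL2 family, the caspases and the adaptor proteins of death receptors are described here in mouse T cells grown under Th9 conditions with or without the cytokine TL1A, which the sample labels write TLA1. The set holds 33 genes taken from a list of names, which was chosen with earlier results of these data known. All 33 were found among the 23480 gene identifiers of the files. They comprised 7 survival members of the BCL2 family, 2 pore-forming effectors, 8 BH3-only members, 6 caspases, 4 genes of mitochondrial release and caspase control, 3 death receptor adaptors and 3 genes of necroptosis. RNA-seq was done on 2 libraries of Th9+TLA1 cells and 2 libraries of Th9 cells; both groups are T cells in the Th9 condition, and TLA1 is the labelled difference. The labels give no strain, genotype, age, dose or culture time. They do not say whether the libraries of a group come from different mice or cultures, and p-values therefore rest on a spread between libraries that may be technical.

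Cell death by the mitochondrial route is set by the balance inside the BCL2 family. Survival members such as BCL2, BCL-XL, MCL1 and A1 hold the effectors BAX and BAK in check, and BH3-only members relieve that hold or engage the effectors directly. Once the outer mitochondrial membrane is permeable, cytochrome c joins APAF1 and caspase 9, while SMAC, the product of Diablo, releases caspases from XIAP. Death receptors of the TNF receptor superfamily instead recruit FADD or TRADD and caspase 8, with the product of Cflar, cFLIP, as the brake on caspase 8, and RIPK1, RIPK3 and MLKL carry out necroptosis where caspase 8 is blocked. The receptor for TL1A, encoded by Tnfrsf25, is itself a death domain receptor that binds TRADD. In activated T cells, survival by cytokines and costimulation is known to run largely through BCL2, BCL-XL, MCL1 and A1, and contraction through BIM, the product of Bcl2l11.

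A1 is encoded in the mouse by near-identical copies, and their sequences are shown because they limit what the read counts of 3 members can say. Bcl2a1a (chromosome 9, 88956920 to 88962416 of mm10, plus strand), Bcl2a1b (chromosome 9, 89199273 to 89207838, plus strand) and Bcl2a1d (chromosome 9, 88723288 to 88731850, minus strand) each have a coding sequence of 519 bases, of which 507 are the same in all 3. The first 120 coding bases, from the GENCODE M21 transcripts on GRCm38, hold 7 of the 12 positions that differ among the 3, and these are in capitals.
Bcl2a1a: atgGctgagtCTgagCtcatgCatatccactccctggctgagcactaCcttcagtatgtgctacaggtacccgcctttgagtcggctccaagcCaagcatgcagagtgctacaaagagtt
Bcl2a1b: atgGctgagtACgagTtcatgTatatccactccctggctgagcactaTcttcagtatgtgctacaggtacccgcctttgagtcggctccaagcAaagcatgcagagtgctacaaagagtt
Bcl2a1d: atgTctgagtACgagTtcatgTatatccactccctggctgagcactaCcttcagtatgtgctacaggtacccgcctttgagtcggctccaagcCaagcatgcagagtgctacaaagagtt
Between pairs, Bcl2a1a and Bcl2a1b differed at 11 coding positions, Bcl2a1a and Bcl2a1d at 7, and Bcl2a1b and Bcl2a1d at 6. Of all 100-base windows of their annotated transcripts, 43.5% for Bcl2a1a, 56.8% for Bcl2a1b and 54.7% for Bcl2a1d also occurred in a transcript of another gene. That gene was not always another of the 3 copies: the largest partner of Bcl2a1b was Gm29094 (42.2%), ahead of Bcl2a1d (31.1%) and Bcl2a1a (16.4%). The sources used here do not give the treatment of such reads in counting, so the levels of the individual copies are uncertain.

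The Th9+TLA1 libraries held 2979482 and 3081187 reads in genes and the Th9 libraries 4041633 and 3167270, so a count of 3 reads stood for 0.742 to 1.01 CPM. All 7 T cell markers were detected, summing to 2909.6 and 2808 CPM in the Th9+TLA1 libraries and 2226 and 2444 CPM in the Th9 libraries. Il9 had 2879 and 2683 CPM with TLA1 and 1559.8 and 1445 CPM without, and Tnfrsf25 had 17.8 and 18.8 CPM with TLA1 and 19.3 and 11.7 CPM without. The 5 B cell markers summed to 28.9 and 29.2 CPM with TLA1, against 10.4 and 12.9 CPM without, most of it from Cd79b, with Ms4a1 and Pax5 at 0 reads in all 4 libraries. The 3 dendritic cell markers summed to 13.8 and 8.76 CPM with TLA1 and 5.69 and 3.16 CPM without. Most of this was Zbtb46, at 12.1 and 7.14 CPM with TLA1 and 5.44 and 2.84 CPM without. Lyz2, Csf1r and Cd14 of the 6 myeloid markers, Ncr1 and Klrb1c of the 3 NK markers and Cpa3, Fcer1a and Mcpt4 of the 4 mast cell markers had 0 reads in all libraries. The myeloid markers summed to 1.68 and 0 CPM with TLA1 and 2.23 and 0.316 CPM without. The NK markers summed to 0 and 0.325 CPM with TLA1 and 0.990 and 0 CPM without. Kit, the remaining mast cell marker, had 15 and 0 reads with TLA1 and 0 and 16 without. The CD8 T cell markers, mostly Cd8b1, summed to 9.73 and 10.1 CPM with TLA1 and 7.92 and 13.3 CPM without. The part of other cells in the values below was not tested, and in bulk RNA fewer cells of a type and less RNA per cell cannot be told apart.

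The comparison asked whether the death and survival genes of Th9 cells differed when TLA1 was present. No member was called: 28 of the 33 had enough reads to be tested, and 0 of the 28 passed a limma test at a Benjamini-Hochberg adjusted p under 0.05, where 1.14% of all 10324 tested genes did. The members nearest to a call were Cflar, the caspase 8 inhibitor, with an estimate 1.59-fold higher with TLA1 (limma adjusted p = 0.118), and Cycs, which encodes cytochrome c, with an estimate of 0.624-fold (adjusted p = 0.136). These were the 2 of 28 members (7.14%) with an unadjusted p under 0.05, beside 16.7% of all tested genes (8.54% higher and 8.14% lower with TLA1). EdgeR's quasi-likelihood test, DESeq2 and limma voom, run on reads recovered from the CPM, also called 0 members, against 1.56%, 2.66% and 1.26% of all tested genes. DESeq2 gave an adjusted p for 22 of the 28. Of the tested genes, 0.891% were called higher and 0.252% lower with TLA1.

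A missed threshold does not show that a gene stayed the same, and the intervals say how large a difference the libraries leave possible. For 11 of the 28 members (39.3%) the 95% interval of the limma fit lay within 2-fold in either direction, as it did for 44.2% of all tested genes. These 11 were Bcl2, Bcl2l1, Mcl1, Bax, Casp2, Casp6, Casp8, Apaf1, Diablo, Xiap and Ripk1. None of the 5 tested BH3-only members was among them. The median log2 fold change of the 28 was 0.14, beside -0.01 over all tested genes, with 15 estimates above 0 and 13 below. In deposited CPM the groups did not overlap in 18 of the 28 (64.3%), 8 with the higher values in Th9+TLA1 and 10 with the lower, where 48.1% of all tested genes did not overlap, 19.1% higher and 29% lower. After TMM scaling 18 were again apart, 10 higher and 8 lower, with Casp8 and Apaf1 added as higher and Casp2 and Diablo no longer lower, against 47.4% of all tested genes (23.7% in each direction), so the direction counts depend on the scaling.

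**Figure D1:**
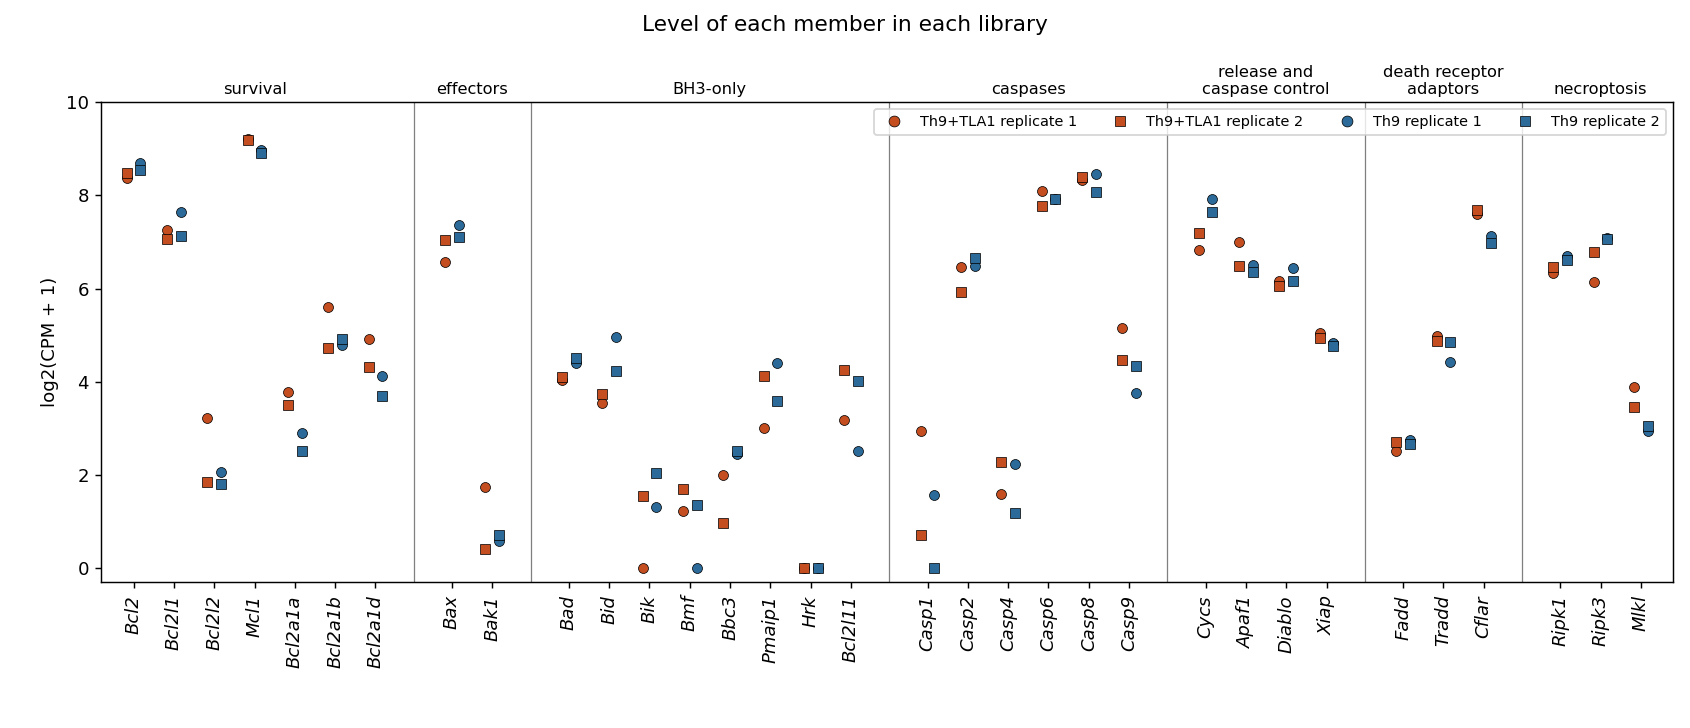
Level of each of the 33 members as log2(CPM + 1) (vertical axis) by gene (horizontal axis), grouped by role; orange marks are the Th9+TLA1 libraries and blue marks the Th9 libraries, circles replicate 1 and squares replicate 2. Mcl1, at 585 and 582 CPM with TLA1 and 499.8 and 475 CPM without, stood at the top, and Hrk at 0 in all 4 libraries.

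**Figure D2:**
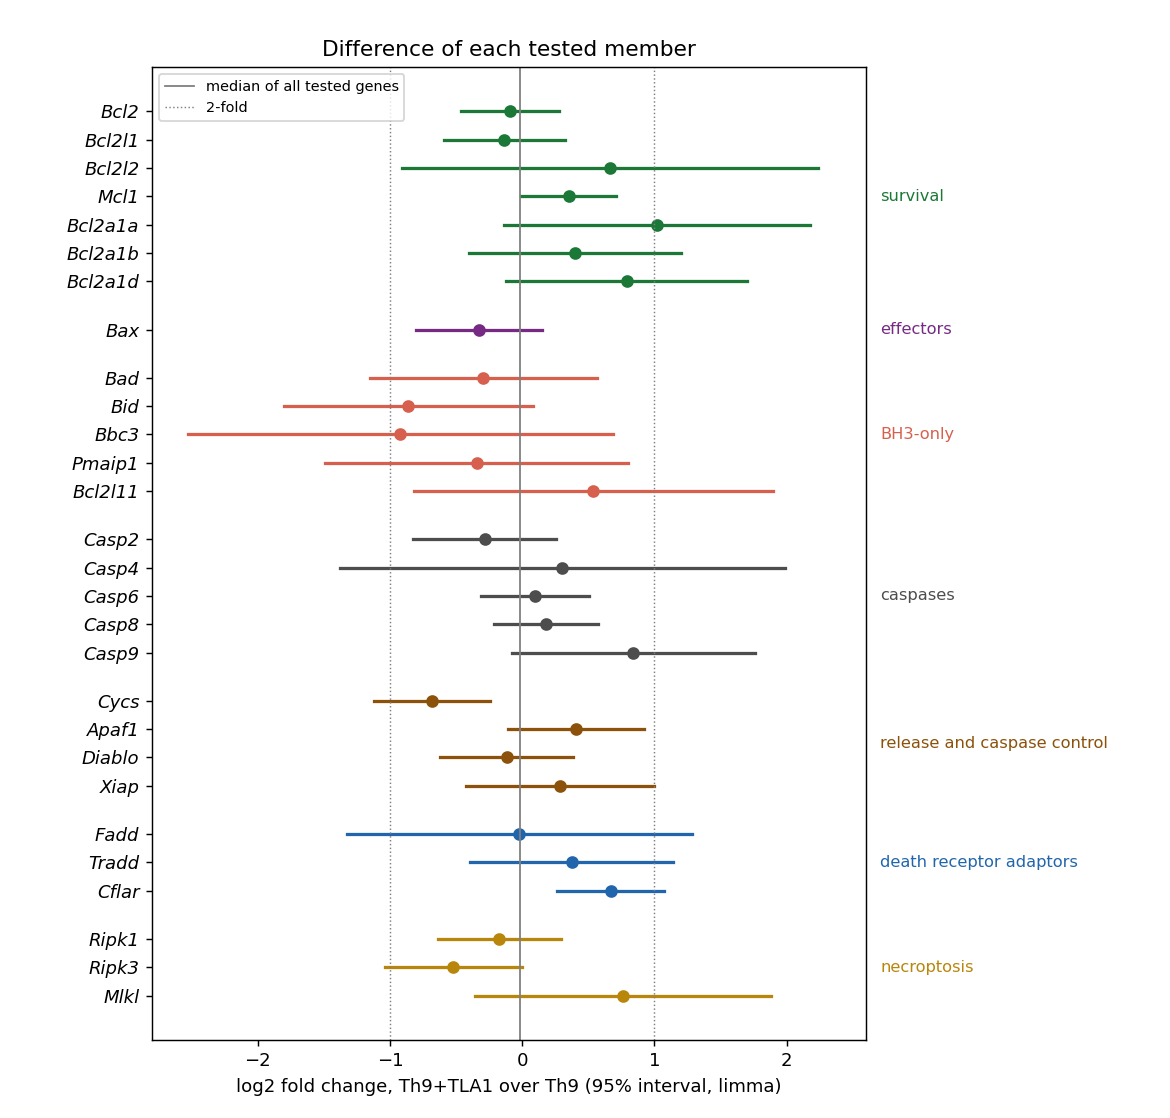
Log2 fold change of Th9+TLA1 over Th9 (horizontal axis) for the 28 tested members, grouped by role down the page; points are limma estimates, bars 95% intervals, the grey line the median of all tested genes and the dotted lines 2-fold. The interval lay clear of 0 for Cflar and Cycs, and none of the 28 passed the adjusted threshold.

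Among the survival members, none of 7 was called, and their median log2 fold change was 0.40 (5 estimates above 0, 2 below). The median rested on TLA1 replicate 1, without which it was -0.04. Mcl1 (chromosome 3, 95656944 to 95663179), which encodes a short-lived survival protein that T cells depend on, was the most abundant member. It had 585 and 582 CPM in the Th9+TLA1 libraries, against 499.8 and 475 CPM in the Th9 libraries. The groups did not overlap and the replicates lay close together, but the log2 fold change of 0.35 ± 0.16 (SE) was not called (limma adjusted p = 0.311, 95% interval -0.01 to 0.71). Bcl2 (chromosome 1, 106538176 to 106714290), the founding member of the family, had 329.9 and 357 CPM with TLA1 and 410.0 and 370.04 CPM without. Both TLA1 libraries lay below both Th9 libraries, though within a narrow band. The log2 fold change was -0.09, with an interval of -0.46 to 0.28 (limma adjusted p = 0.843). Bcl2l1 (chromosome 2, 152758732 to 152833803), which encodes BCL-XL, had 151 and 132 CPM with TLA1 and 197 and 138 CPM without. Only Th9 replicate 1 stood above the others, and without it the estimate was 0.08 in place of -0.13.

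Bcl2a1a and Bcl2a1d had the highest fold estimates of the survival group, on 15 to 87 reads a library. Bcl2a1a had 38 and 32 reads in the Th9+TLA1 libraries, against 26 and 15 in the deeper Th9 libraries, which is 12.8 and 10.4 CPM against 6.43 and 4.74 CPM. Its log2 fold change of 1.02 had an interval of -0.14 to 2.18 (limma adjusted p = 0.367). Bcl2a1d had 29.2 and 18.8 CPM with TLA1 and 16.3 CPM (66 reads) and 38 reads without, and for both copies the groups did not overlap. Bcl2a1b had 47.7 and 25.3 CPM with TLA1 and 26.7 and 29.0 CPM without, so that TLA1 replicate 1 alone stood apart, and without that library its log2 fold change was -0.05 in place of 0.40. Bcl2l2, which encodes BCL-W, had 25 and 8 reads with TLA1 and 13 and 8 without; here too only TLA1 replicate 1 was high, and the estimate of 0.66 became -0.04 without it.

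Bax (chromosome 7, 45461695 to 45466903), which encodes an effector that forms pores in the outer mitochondrial membrane, had 93.98 and 131 CPM with TLA1, against 163 and 136 CPM without. The groups did not overlap, yet TLA1 replicate 2 and Th9 replicate 2 were almost level, and the log2 fold change of -0.33 ± 0.22 was not called (limma adjusted p = 0.490). Bak1, which encodes the other effector, had 7 and 1 reads with TLA1 and 2 and 2 reads without, which is at or near the floor of 3 reads in 3 of 4 libraries, and it was not tested. Bax thus made up 98.4% to 99.8% of the effector reads per length in each library.

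The BH3-only members were present at low levels, and none of the 5 tested was called. Of their estimates 4 were below 0 and 1 above, with a median log2 fold change of -0.35 that was -0.71 without Th9 replicate 2. Bad (chromosome 19, 6941861 to 6951905), whose product binds BCL2 and BCL-XL, had 15.4 and 16.2 CPM with TLA1 and 20.04 and 21.8 CPM without. Its replicates lay close together and the groups did not overlap, but the log2 fold change of -0.29 had an interval of -1.15 to 0.57 at 46 to 81 reads a library. Bid (chromosome 6, 120893119 to 120917062), which links death receptors to mitochondria after caspase 8 cuts it, had 10.7 and 12.3 CPM with TLA1 and 30.2 and 17.7 CPM without. Both TLA1 libraries lay below both Th9 libraries, and the Th9 libraries differed from each other by more than Th9 replicate 2 did from TLA1. The log2 fold change of Bid was -0.86 ± 0.43 (limma adjusted p = 0.346). Bbc3, which encodes PUMA, had 9 and 3 reads with TLA1 and 18 and 15 reads without, with a log2 fold change of -0.92 and a wide interval of -2.53 to 0.68.

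For Pmaip1 and Bcl2l11 the replicates differed more than the groups, and the other BH3-only members had few reads or none. Pmaip1, which encodes NOXA, an antagonist of MCL1, had 7.05 and 16.6 CPM with TLA1 and 20.3 and 11.1 CPM without, and the groups overlapped. Bcl2l11 (chromosome 2, 128126038 to 128162547), which encodes BIM, had 8.06 and 18.2 CPM with TLA1 and 4.70 and 15.2 CPM without. In each group replicate 2 was the higher, by more than the difference between groups, and the log2 fold change ran from -0.25 without Th9 replicate 1 to 1.33 without Th9 replicate 2. Bik had 0 and 6 reads with TLA1 and 6 and 10 without, and Bmf had 4 and 7 reads with TLA1 and 0 and 5 without. Hrk had 0 reads in all 4 libraries, which allows up to 0.742 to 1.01 CPM. These 3 were not tested.

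As a sum, survival members were far above BH3-only members in RNA, a comparison of levels made per length, as CPM per kb of annotated exon. This did not hold for each member. Bcl2l2 had 1.23 CPM per kb with TLA1 and 0.643 without, below Bad at 6.19 and 8.18. The range of Bcl2a1a over libraries (5.78 to 15.6) overlapped that of Bad (6.04 to 8.52). Summed over the group, survival members had 349.7 and 304 CPM per kb in the Th9+TLA1 libraries and 294 and 265 CPM per kb in the Th9 libraries. BH3-only members summed to 14.3 and 20.3 CPM per kb with TLA1 and 27.4 and 23.9 CPM per kb without. The ratio of the sums was therefore 24.4 and 15.0 with TLA1, against 10.7 and 11.1 without, higher in both TLA1 libraries. The TLA1 libraries differed from each other by more than TLA1 replicate 2 did from the Th9 libraries, and no test was made of a sum over chosen genes. Leaving out the A1 copies gave ratios of 16.9 and 11.8 with TLA1 and 8.57 and 8.77 without. Leaving out Bad and Bid gave 66.5 and 29.1 with TLA1 and 26.6 and 25.4 without, where TLA1 replicate 1 alone stood well apart. Leaving out Pmaip1 gave 29.8 and 21.4 with TLA1 and 14.7 and 13.3 without. Survival members over effectors gave lower ratios of the sums, 5.77 and 3.64 with TLA1 and 2.84 and 3.07 without. Within the survival sum Mcl1 held 48.9% to 56.0%, Bcl2 10.3% to 15.2% and Bcl2l1 9.40% to 14.6%, and within the BH3-only sum Bad held 28.6% to 42.1%.

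Ratios of 2 genes within a library do not depend on how libraries are scaled, and 10 pairs were compared, each as log2 of reads plus 1 over reads plus 1. All but Ripk1 to Casp8 set an inhibitor or survival gene over a partner. With 2 libraries a group the exact two-sided permutation test cannot give a p under 0.333, and adjusted over the 10 pairs none was below 0.741. Groups did not overlap in 4 pairs. The log2 ratio of Cflar to Casp8 reads was -0.73 and -0.71 with TLA1 and -1.34 and -1.09 without, a difference of 0.49 (exact permutation p = 0.333). Replicates of this pair lay closer together than the groups, and the difference was 0.37 to 0.62 whichever library was left out. For Xiap to Diablo the log2 ratio was -1.11 and -1.13 with TLA1 and -1.64 and -1.43 without, a difference of 0.41. For Ripk1 to Casp8 it was -2.00 and -1.94 with TLA1 and -1.77 and -1.46 without, a difference of -0.35. For Mcl1 to Bbc3 it was 7.45 and 8.81 with TLA1 and 6.73 and 6.56 without, on 3 to 18 reads of Bbc3, and the difference of 1.48 was 0.80 to 2.16 with a library left out. The classical pairs of Bcl2 and Bcl2l1 with Bcl2l11 overlapped between groups, with differences of -0.69 and -0.74 that were smaller than the gap between replicates. Bcl2 to Bax had log2 ratios of 1.81 and 1.44 with TLA1 and 1.33 and 1.44 without, and these overlapped as well. The pairs Bcl2l1 to Bad, Mcl1 to Pmaip1 and Bcl2l1 to Bak1 also overlapped.

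**Figure D3:**
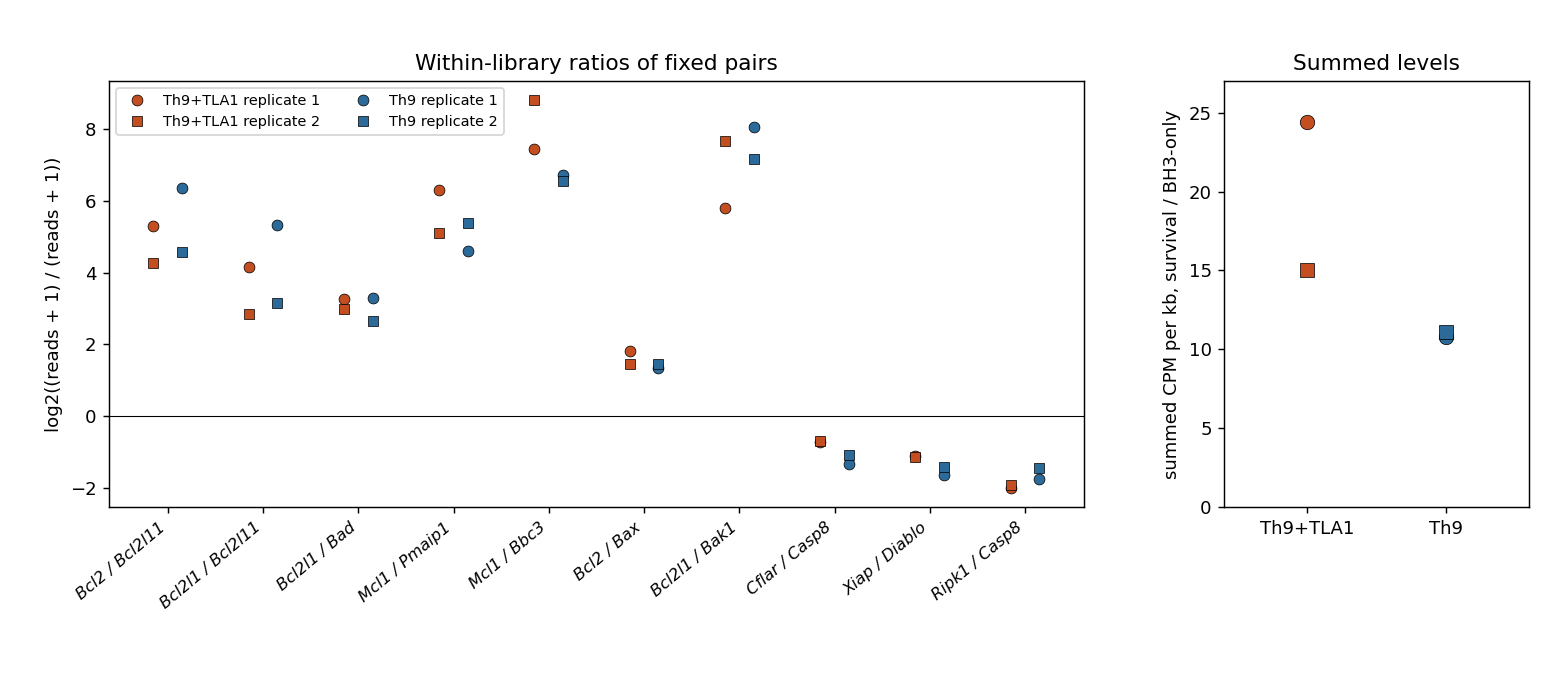
Left, log2 ratio of reads (vertical axis) within each library for 10 gene pairs (horizontal axis), chosen with earlier results of these data known. Right, ratio of summed CPM per kb of survival over BH3-only members. Marks are Th9+TLA1 (orange) and Th9 (blue) libraries, circles replicate 1 and squares replicate 2. The sums gave 24.4 and 15.0 with TLA1 and 10.7 and 11.1 without, while the ratios of Bcl2 and Bcl2l1 to Bcl2l11 overlapped between the groups.

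Of the 6 caspases 5 were tested, none was called, and the median log2 fold change was 0.18. Caspases not in the list were not analysed here. Casp8 (chromosome 1, 58795233 to 58847503), the initiator caspase of death receptors, was the most abundant, with 319 and 333 CPM in the Th9+TLA1 libraries and 351 and 267 CPM in the Th9 libraries. In deposited CPM the Th9 libraries enclosed the TLA1 values, while after TMM scaling both TLA1 libraries lay above both Th9 libraries. The interval of its log2 fold change, on the TMM scale, was -0.22 to 0.58 (limma adjusted p = 0.676). Casp6 (chromosome 3, 129901415 to 129914112), an executioner caspase, had 273 and 217 CPM with TLA1 and 242 and 242 CPM without, again with the groups overlapping. Casp2 (chromosome 6, 42264902 to 42282508), an initiator linked to cell division errors, had 86.6 and 60.04 CPM with TLA1 and 88.8 and 99.1 CPM without. TLA1 replicate 2 alone was low, and without it the log2 fold change was -0.02 in place of -0.28. Casp9 (chromosome 4, 141793612 to 141815978), the initiator activated on APAF1, had 34.6 and 21.1 CPM with TLA1 and 12.6 and 19.3 CPM without. Replicate 2 was nearly level between the groups, and its log2 fold change of 0.84 ± 0.42 was not called (adjusted p = 0.346). The inflammatory caspases were close to the floor: Casp4 had 6 and 12 reads with TLA1 and 15 and 4 without. Casp1 had 20 and 2 reads with TLA1 and 8 and 0 without and was not tested.

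In the group of mitochondrial release and caspase control, Cycs (chromosome 6, 50562563 to 50566569), which encodes the electron carrier that triggers the apoptosome, had 112 and 145 CPM with TLA1, against 241 and 199 CPM without. Both TLA1 libraries lay below both Th9 libraries. The log2 fold change of -0.68 ± 0.20 had an interval of -1.12 to -0.24 and was not called (limma adjusted p = 0.136), and it lay between -0.86 and -0.50 whichever library was left out. Apaf1 (chromosome 10, 90989311 to 91082743), the scaffold of the apoptosome, had 128 and 88.9 CPM with TLA1 and 90.1 and 80.8 CPM without. TLA1 replicate 1 alone stood above the rest in deposited CPM, while after TMM scaling both TLA1 libraries lay above both Th9 libraries. The log2 fold change of Apaf1, on the TMM scale, was 0.41. Diablo (chromosome 5, 123511330 to 123524164), which encodes SMAC, had 70.1 and 65.2 CPM with TLA1 and 86.4 and 71.04 CPM without. Xiap (chromosome X, 42059613 to 42109664), which encodes the caspase inhibitor that SMAC displaces, had 32.2 and 29.5 CPM with TLA1 and 27.5 and 26.2 CPM without. In deposited CPM the groups did not overlap for Diablo and Xiap, but those of Diablo did after TMM scaling. Their log2 fold changes of -0.12 and 0.28 were not called.

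Of the death receptor adaptors none of 3 was called. Cflar (chromosome 1, 58711311 to 58758884) had 192 and 204 CPM with TLA1, against 139 and 126 CPM without. The replicates of each group lay close together and the groups were well apart, with a log2 fold change of 0.67 ± 0.19 (interval 0.27 to 1.08, limma adjusted p = 0.118). Its estimate stayed between 0.64 and 0.71 whichever library was left out, with adjusted p between 0.146 and 0.335, and its adjusted p was 0.0646 with DESeq2. Fadd (chromosome 7, 144578323 to 144582441), the adaptor that joins FAS to caspase 8, had 14 and 17 reads with TLA1 and 23 and 17 without, and its interval of -1.33 to 1.28 leaves room for more than a 2-fold difference either way. Tradd (chromosome 8, 105258575 to 105264594), the adaptor used by the TL1A receptor, had 30.5 and 28.2 CPM with TLA1 and 20.5 and 27.8 CPM without. Th9 replicate 1 alone was low, and the log2 fold change of 0.37 had an interval of -0.39 to 1.14.

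The necroptosis genes did not point in 1 direction, and none of 3 was called. Ripk3 (chromosome 14, 55784995 to 55788857), the kinase that activates MLKL, had 69.8 and 109 CPM with TLA1, against 135 and 133 CPM without. Both TLA1 libraries were lower but differed from each other, and the log2 fold change was -0.52 ± 0.24 (limma adjusted p = 0.302). Without TLA1 replicate 1 it was -0.21. Ripk1 (chromosome 13, 34002225 to 34035170), the kinase shared by survival and death complexes below TNF receptors, had 79.2 and 86.7 CPM with TLA1 and 103 and 96.6 CPM without. Its log2 fold change of -0.17 had an interval within 2-fold either way. Mlkl (chromosome 8, 111311255 to 111338479), the executioner that ruptures the plasma membrane, had 41 and 31 reads with TLA1 and 27 and 23 without, which is 13.8 and 10.1 CPM against 6.68 and 7.26 CPM. Its log2 fold change of 0.76 was not called (adjusted p = 0.490).

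**Figure D4:**
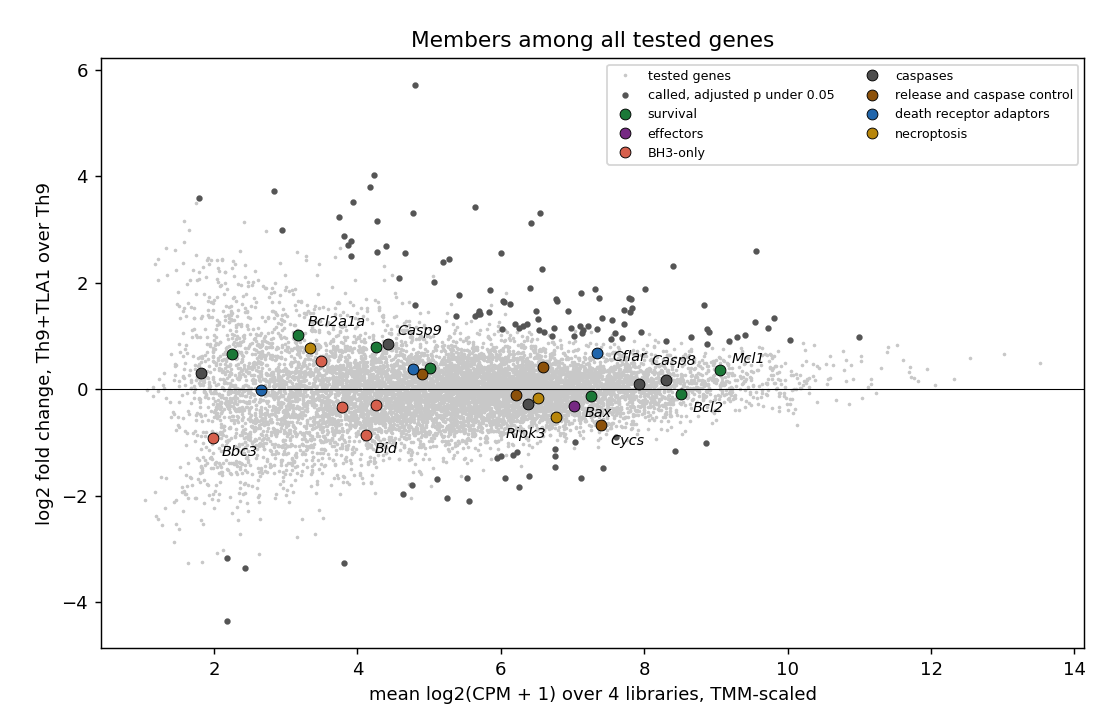
Log2 fold change of Th9+TLA1 over Th9 (vertical axis) against mean log2(CPM + 1) (horizontal axis) for all 10324 tested genes (grey), the 118 called genes (dark grey) and the 28 tested members (coloured by role). The members lie within the cloud of genes that were not called, between Bbc3 at -0.92 and Bcl2a1a at 1.02.

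Of 40 further genes of death receptors, inhibitor of apoptosis proteins, TNF receptor signalling and mitochondrial death, 39 were tested, 2 were called higher with TLA1 and 0 lower by limma, beside 0.891% and 0.252% of all tested genes. DESeq2 called 5 of the 39, of which 34 had an adjusted p, beside 2.66% of all tested genes. Both counts include genes without an adjusted p. Tnfaip3, which encodes the ubiquitin-editing enzyme A20 that restrains signalling from TNF receptors, had 378 and 334 CPM with TLA1 and 138 and 137 CPM without. It was called in the main fit and whichever library was left out (limma adjusted p = 0.00316; 0.00120 to 0.0151). Fas, a death receptor gene, had 89.9 and 93.8 CPM with TLA1 and 45.03 and 43.3 CPM without (adjusted p = 0.0440; 0.0658 to 0.205 with a library left out). The 5 next genes by p were Traf1 (log2 fold change 0.83), Birc3 (0.67), Bnip3l (0.68), Gsdmd (1.45) and Bcl2l14 (1.46), at adjusted p between 0.0866 and 0.244, none of them called by limma. With DESeq2 the adjusted p was 0.0363 for Traf1, 0.0377 for Birc3 and 0.0351 for Bnip3l, which it called. Birc3, which encodes the ubiquitin ligase cIAP2, had 267 and 293 CPM with TLA1 and 199 and 176 CPM without. Fas was called while Fadd, Casp8 and Cflar, which act below it, were not, and the differences between these effects were not tested.

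Ordered by level per length over the 4 libraries, the members ran from Mcl1, with 171 CPM per kb with TLA1 and 143 without, through Casp8 (113 and 107) and Bax (71.5 and 94.8) to Bmf (0.344 and 0.150) and Hrk at 0. Mcl1 was the only member whose range over libraries did not meet that of the next in order. In the other 31 of 32 neighbouring pairs the ranges, taken over both groups, overlapped, so the ranges alone do not resolve their order. Within libraries some of these pairs kept their order: Casp8 was above Bax, Bax above Cycs and Bad above Pmaip1 in all 4. Others did not: Cycs was above Ripk3 in Th9+TLA1 replicate 1 and below it in Th9+TLA1 replicate 2. Exon length was the union of all annotated exons, which lowers the level of genes with long, rarely used exons.

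Shared sequence touched other members too. Of the 100-base windows of Cycs, 22.6% also occurred in the transcript of Gm10053, a second gene with matching sequence. For Diablo 33.5% of windows were shared, with B3gnt4 on the opposite strand as the main partner, and B3gnt4 itself had 1 and 2 reads with TLA1 and 36 and 8 without. For Bid 15.1% of windows were shared with the antisense gene Bcl2l13, which had 230 and 239 reads with TLA1 and 265 and 261 without, for Bad 14.7% with Gpr137 and for Bcl2 4.41% with D630008O14Rik, and the library kit does not mark strand. The 100-base windows of Bcl2l1, Mcl1, Bcl2l11, Casp6, Apaf1, Xiap, Tradd and Ripk3 were not found in any other annotated gene.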

How the data were processed

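RNA-seq of 4 libraries of mouse T cells was analysed. Libraries were prepared with a SMARTer kit for small inputs and read by Ion Torrent sequencing, per the labels. The authors deposited CPM per gene; HTSeq 0.5.4, edgeR and the mm10 build appear in the submitters' processing notes. The sources used here do not name an aligner or annotation. In every library 100% of non-zero CPM were whole multiples of the value of 1 read (tolerance 0.01 read), so reads were recovered. Identifiers were matched to RefSeq (GRCm38.p6, 23383 of 23480), and exon lengths and transcripts came from GENCODE M21. Genes passing filterByExpr (minimum count 10) were tested with limma, with a mean trend, on log2(CPM + 1) after TMM scaling (factors 0.964 to 1.06). Fold changes on this scale understate those of low genes, and a pseudocount of 1 CPM was used. Printed CPM are as deposited. The adjustment was over all 10324 tested genes. Reads from amplified cDNA are not independent molecules, so floors cover counting error only.

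Alternatives were other scaling, filters, pseudocounts and tests, a replicate block, and leaving out each library. Whether the replicate numbers pair the samples is not known. The correlation of same-numbered deviations over all tested genes was -0.01, which cannot decide it, as noise between libraries can hide a shared source. Chi-square per degree of freedom between replicates was 7.67 in Th9+TLA1 and 12.7 in Th9, so no library was a copy of another. Members, role groups, pairs and lists were chosen with earlier results of these data known; every member is named, with Il9, Tnfrsf25, and of 40 further pathway genes the called ones and the 5 others with the smallest p. Genes named for sharing sequence with a member were chosen after their values were seen. Tests were also run on simulated data with known fold changes. The share recovered is not reported here, so that run does not show how often a real difference would be called. Tests ran in limma 3.58.1, DESeq2 1.42.0 and edgeR 4.0.16 under R 4.3.3, and tables in pandas 2.3.3 under Python 3.11.15.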

Additional observations from a re-analysis of the deposited data

How the results depend on the processing

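Members called stayed at 0 under every alternative run, and the lowest adjusted p of any member was 0.0646, for Cflar with DESeq2. The depth of the 4 libraries limits the low members, and with 2 libraries a group each library carries much of a value. The main fit called 118 genes (92 higher with TLA1, 26 lower). CPM as deposited gave 73 (52 higher), no filter on low counts 33 (25 higher, 8 lower) and DESeq2 275 (185 higher, 90 lower). Genes called lower numbered 43 with upper-quartile scaling and 44 with edgeR. Where the replicate number was a block, limma called 225 genes (147 higher, 78 lower) and 0 members; the block rests on numbers that the labels do not tie to a shared source. Leaving out 1 library gave 31 to 312 called genes, 30 to 233 higher and 1 to 129 lower. The fewest were without Th9 replicate 1 (31) and the most without Th9 replicate 2 (312), with 61 without TLA1 replicate 1 and 233 without TLA1 replicate 2. With the filter rerun, chosen after seeing the data, leaving out a Th9 library gave 42 genes (39 higher, 3 lower) without replicate 1 and 19 (19 higher, 0 lower) without replicate 2. Leaving out a TLA1 library so gave 68 lower without replicate 1, and 50 higher and 46 lower without replicate 2.

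The adaptors had a median log2 fold change of 0.29 with CPM as deposited and 0.42 with voom. With the stricter filter it was 0.52, but that filter dropped Fadd, so the value covers Tradd (0.37) and Cflar (0.66) only. The median of the necroptosis genes was -0.26 with CPM as deposited. With a library left out, medians ran from -0.038 to 0.85 for survival members, -0.71 to -0.27 for BH3-only members, -0.017 to 0.15 for mitochondrial release and caspase control, and 0.13 to 0.63 for the adaptors. The estimates of 8 of the 28 members changed sign with a library left out and those of 0 members under the other settings. Their ranges were -0.34 to 0.084 for Bcl2l1, -0.038 to 1.37 for Bcl2l2, -0.052 to 0.85 for Bcl2a1b, -0.90 to 0.21 for Pmaip1, -0.25 to 1.33 for Bcl2l11, -0.18 to 0.79 for Casp4, -0.072 to 0.27 for Casp6 and -0.11 to 0.070 for Fadd. Of the ratios, 4 changed sign when a library was left out, an alternative chosen after seeing the data, with ranges of -1.59 to 0.20 for Bcl2 to Bcl2l11, -1.82 to 0.35 for Bcl2l1 to Bcl2l11, -0.16 to 0.49 for Bcl2l1 to Bad and -1.81 to 0.047 for Bcl2l1 to Bak1. The cause of these differences was not tested.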
